A study of Mus musculus with 8 samples.

Results

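Mincle and 8 related myeloid C-type lectins were followed in bone-marrow-derived macrophages (BMDM) that were deficient in the histone acetyltransferase KAT8 or wild type (WT). The genes are Clec4e (Mincle), Clec4d (MCL), Clec4n (Dectin-2), Clec4a1, Clec4a2 and Clec4a3 (the DCIR group), Clec7a (Dectin-1), Clec5a (MDL-1) and Clec10a (MGL1). They were taken by gene symbol, 9 of the 34745 Ensembl genes in the count table, and all 9 passed the filter on low counts that left 14040 genes. Messenger RNA was sequenced in 8 libraries forming 4 groups of 2. The groups were KAT8-deficient cells exposed for 6 h to R848 at 100 ng/ml, KAT8-deficient cells left untreated, WT cells with the same R848 treatment, and WT cells left untreated. Every culture had been grown from mouse bone marrow in recombinant M-CSF (macrophage colony-stimulating factor) at 20 ng/ml. R848, or resiquimod, is an imidazoquinoline that activates TLR7, a receptor for RNA in endosomes. The sample titles call the deficient cells KAT8-cKO, and the sources used here give neither strain and age of the mice, nor the deleted part of Kat8, nor the promoter driving the deletion. Nothing in the labels ties the 2 libraries of a group to different mice or dishes, and the p-values therefore measure only how far these libraries differ, which may be technical spread.

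C-type lectins of this kind are surface receptors that bind sugars and glycolipids of microbes and of dying cells. Mincle, MCL and Dectin-2 signal through the adaptor FcRgamma (gene Fcer1g), MDL-1 through DAP12 (gene Tyrobp), and Dectin-1 through a motif in its own tail. These routes meet at the kinase Syk and then at the Card9, Bcl10 and Malt1 complex, which activates NF-kB. DCIR (Clec4a2) carries an inhibitory motif that recruits the phosphatases encoded by Ptpn6 and Ptpn11. In macrophages Mincle is known as a receptor for the mycobacterial glycolipid trehalose dimycolate whose messenger RNA is induced by Toll-like receptor ligands.

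Of the 9 genes, 6 lie in a single cluster on chromosome 6 (GENCODE M21, GRCm38). Clec4a1 spans 122921848 to 122934619, Clec4a3 122952515 to 122969875, Clec4a2 123106428 to 123143999, Clec4n 123229843 to 123247021 and Clec4d 123262111 to 123275265, all on the plus strand. Clec4e lies beside Clec4d on the opposite strand, at 123281789 to 123289870, so that their 3' ends face each other. Clec7a (129461591 to 129472779) and Clec5a (40574894 to 40585821) are elsewhere on chromosome 6, on the minus strand, and Clec10a (70156197 to 70170834, plus strand) is on chromosome 11. The annotation types Clec7a as a polymorphic pseudogene. No exon of the 9 genes overlapped an exon of another annotated gene. The share of 50-base stretches of their transcripts that also occur in transcripts of other genes was 0% for Clec4e, Clec4d, Clec4a1, Clec4a3, Clec7a and Clec5a, and 0.686% for Clec4n. It was 6.83% for Clec4a2, mainly through Clec4a4 and Clec4b1, and 9.02% for Clec10a, mainly through Mgl2, so those counts are slightly open to reads of their neighbours. These neighbours were near 0, with at most 0.283 CPM (counts scaled to the normalised library total) for Clec4a4, 0.3801 for Clec4b1 and 0.2042 for Mgl2 in any library.

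The promoters of the 4 genes with the most similar profiles over the libraries, Clec4e, Clec4d, Clec4a1 and Clec5a, are shown from 250 bases before to 50 bases after the RefSeq start site (GRCm38.p6), with matches to the motifs searched in capitals. They lie at chr6:123289822-123290121, minus strand (Clec4e), chr6:123261857-123262156, plus strand (Clec4d), chr6:122921598-122921897, plus strand (Clec4a1) and chr6:40585756-40586055, minus strand (Clec5a).
Clec4e: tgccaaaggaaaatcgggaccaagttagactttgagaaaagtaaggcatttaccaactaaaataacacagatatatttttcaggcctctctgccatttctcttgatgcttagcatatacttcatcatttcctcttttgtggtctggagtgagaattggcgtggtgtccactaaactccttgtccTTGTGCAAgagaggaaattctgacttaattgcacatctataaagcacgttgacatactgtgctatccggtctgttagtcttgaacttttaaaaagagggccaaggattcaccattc
Clec4d: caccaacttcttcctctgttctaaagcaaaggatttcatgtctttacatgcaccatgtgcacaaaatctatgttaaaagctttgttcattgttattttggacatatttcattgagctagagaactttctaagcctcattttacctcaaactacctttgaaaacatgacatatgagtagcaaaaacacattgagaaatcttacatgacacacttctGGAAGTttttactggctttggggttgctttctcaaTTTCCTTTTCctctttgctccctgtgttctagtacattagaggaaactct
Clec4a1: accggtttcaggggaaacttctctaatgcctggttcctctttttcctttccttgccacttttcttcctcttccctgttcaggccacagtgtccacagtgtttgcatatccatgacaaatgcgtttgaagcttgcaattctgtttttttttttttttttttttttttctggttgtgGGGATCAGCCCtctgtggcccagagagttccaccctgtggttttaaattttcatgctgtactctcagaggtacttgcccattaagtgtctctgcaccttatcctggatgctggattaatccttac
Clec5a: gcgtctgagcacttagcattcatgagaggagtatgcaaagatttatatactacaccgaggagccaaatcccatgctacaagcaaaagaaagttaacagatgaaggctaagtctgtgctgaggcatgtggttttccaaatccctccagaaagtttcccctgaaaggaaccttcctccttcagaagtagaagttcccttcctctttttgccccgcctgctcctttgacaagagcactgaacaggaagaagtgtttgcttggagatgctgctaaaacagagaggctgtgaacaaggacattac
Both strands were searched for 5 patterns, in which N is any base. They were GGGNNNNNCC for NF-kB, TTGCNNAA for C/EBP, TGANTCA for AP-1, GGAAGT for the core of PU.1 sites and GAAANNGAAA for the interferon-stimulated response element. The Clec4e window held a single match, to the C/EBP pattern, which 10.8% of all 32851 promoters of this length hold. The Clec4d window held the PU.1 core (23.8% of promoters) and, over its start site, the interferon pattern (3.44%). The Clec4a1 window held the NF-kB pattern, read on both strands from overlapping bases (50.8% of promoters), and the Clec5a window held none of the 5. No pattern was thus shared between these 4 windows, and 0 of them held the AP-1 pattern, against 7.81% of all promoters. Such matches describe letters in the window and say nothing of binding.

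Each library held between 18550977 and 21384532 counts, where 3 counts correspond to 0.14 to 0.163 CPM. Kat8 stood at 9.94 and 10.4 CPM in R848-treated and 8.76 and 10.8 CPM in untreated KAT8-deficient libraries, against 18.03 and 16 CPM in R848-treated and 17 and 17.9 CPM in untreated WT libraries. Every KAT8-deficient library was thus below every WT library, with log2 differences of -0.74 under R848 (edgeR adjusted p = 0.00553) and -0.84 without it (edgeR adjusted p = 0.0113). All 10 macrophage markers checked were expressed. Markers of monocytes were checked too, as were those of neutrophils and dendritic cells, which also express several of these lectins. The defining genes Ly6g and Flt3 were at 0 counts in every library, and 8 of 10 neutrophil and 4 of 8 dendritic cell markers stayed under 1 CPM throughout. Camp, a neutrophil granule gene, stood at 0.141 and 0.0943 CPM in R848-treated KAT8-deficient libraries, against 0.747 and 0.766 CPM in R848-treated and 0.0466 and 0 CPM in untreated WT libraries. It rose with R848 in WT cells (edgeR adjusted p = 0.00934) and was lower in KAT8-deficient cells under R848 (edgeR adjusted p = 0.0304), as several lectins were. The other tested neutrophil markers, S100a8 and Mmp8, were not called in any comparison. With R848 in WT cells S100a8 changed by 0.38 and Mmp8 by -0.43. Under R848 they differed between KAT8-deficient and WT cells by -0.47 and -0.10. Of 4 tested dendritic cell markers, Zbtb46, Itgax and Ccr7 were not called in any comparison. Dpp4 was higher in KAT8-deficient cells under R848 (1.59) and without it (0.89). It fell with R848 in WT cells (-0.71, edgeR adjusted p = 0.0214). Of 5 tested monocyte markers, Plac8 was higher (0.69) and Ly6c2 (-2.03) and Chil3 (-0.48) were lower in KAT8-deficient cells under R848. Without R848 Ly6c2 alone was called (-2.36), at 0.141 to 0.424 CPM in KAT8-deficient and 1.07 to 1.35 CPM in WT libraries over both states. R848 called 0 of the 5 in either genotype. Neutrophil markers summed to 9.9 to 12.3 CPM in KAT8-deficient and 11.5 to 14.7 CPM in WT libraries, and dendritic cell markers to 502 to 593 CPM in KAT8-deficient and 583 to 623 CPM in WT libraries, most of it from Itgax. Markers of stromal cells moved with the genotype and with R848. Of 11 such markers, 9 were higher under R848 and 8 without it in KAT8-deficient cells, and 0 were lower (edgeR). R848 lowered 2 of them and raised 0 in KAT8-deficient cells, and lowered 5 and raised 1 in WT cells. Their summed level was 4051 to 4145 CPM in R848-treated and 4571 to 4816 CPM in untreated KAT8-deficient libraries, against 2761 to 2966 CPM in R848-treated and 3287 to 3806 CPM in untreated WT libraries. The 9 macrophage markers other than Lyz2 summed to 3774 to 4102 CPM in KAT8-deficient libraries, against 4065 to 4550 CPM in WT libraries. Lyz2 itself stood at 5202 to 5944 CPM in KAT8-deficient libraries and 11030 to 12140 CPM in WT libraries. Single macrophage markers went both ways. Under R848, 4 of the 10 were lower (Lyz2, Adgre1, Csf1r and Cd14) and 1 higher (Fcgr1, by 1.09) in KAT8-deficient cells, and in WT cells R848 raised 3 and lowered 2. The part of these markers in the R848 and genotype differences below was not tested, and in such bulk samples fewer macrophages and less RNA per macrophage cannot be told apart.

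Mincle was the most R848-responsive of the 9 genes in both genotypes. Clec4e stood at 210.2 and 326 CPM in R848-treated KAT8-deficient libraries and at 65.7 and 75.4 CPM in untreated ones. In WT libraries it stood at 984 and 919 CPM with R848 and at 114 and 117 CPM without. The 4 groups did not overlap, with the R848-treated WT libraries highest and the untreated KAT8-deficient ones lowest. Clec4e rose 3.8-fold with R848 in KAT8-deficient cells (log2 change 1.93, SE 0.178, edgeR adjusted p = 0.00861) and 8.22-fold in WT cells (log2 change 3.04, SE 0.183, edgeR adjusted p = 7.19e-05). Under R848 it was lower in KAT8-deficient than in WT cells, by 1.83 on the log2 scale (SE 0.174, edgeR adjusted p = 0.000583), or 0.282 times the WT level. The untreated difference was -0.71 (SE 0.175, edgeR adjusted p = 0.0607), short of the threshold. It passed by the DESeq2 Wald test (adjusted p = 0.0481), with no filter on low counts (edgeR adjusted p = 0.00594) and with the compared libraries alone (0.0119). It did not pass with robust estimation of the spread (edgeR adjusted p = 0.165) or by limma-voom (adjusted p = 0.0814). Of 16 alternative settings 5 called this difference, which ran from -0.82 to -0.62. The KAT8-deficient response did not pass without KAT8-deficient untreated replicate 1 (log2 change 1.83, edgeR adjusted p = 0.089).

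Clec4d encodes MCL, which associates with Mincle at the cell surface. It stood at 354 and 389.6 CPM in R848-treated and 296 and 299 CPM in untreated KAT8-deficient libraries. In WT libraries it stood at 515 and 477 CPM with R848 and at 294 and 285 CPM without. The untreated levels thus differed by little, and the R848-treated levels separated by genotype. Clec4d rose in WT cells (log2 change 0.78, SE 0.0679, edgeR adjusted p = 0.000218), while the change in KAT8-deficient cells was 0.32 (SE 0.0676, edgeR adjusted p = 0.0898). Under R848 it was lower in KAT8-deficient than in WT cells, by 0.42 on the log2 scale (SE 0.0675, edgeR adjusted p = 0.00473). The change in KAT8-deficient cells passed by the DESeq2 Wald test (adjusted p = 0.0139), with no filter (edgeR adjusted p = 0.0271) and with robust estimation of the spread (0.0473). These were 3 of 16 alternative settings, and limma-voom did not call it (adjusted p = 0.0856).

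**Figure D1:**
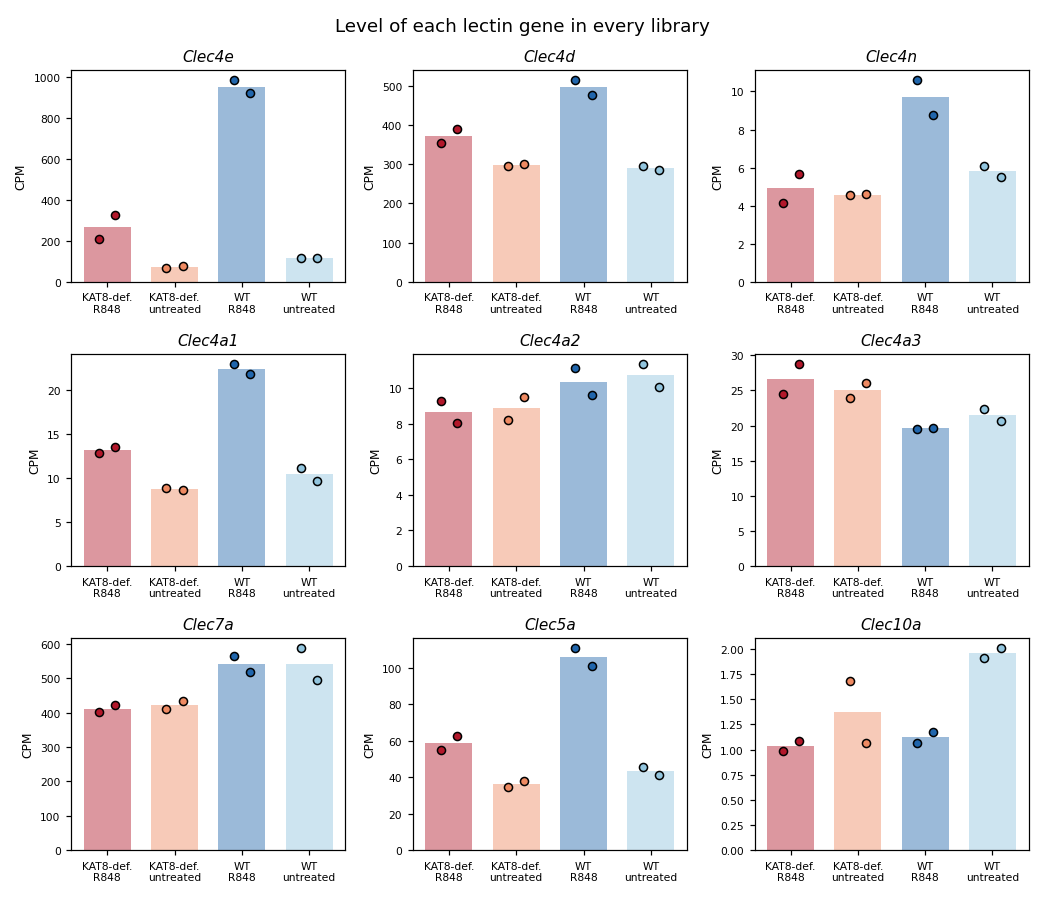
Normalised level (CPM, linear axes from 0) of each of the 9 lectin genes in every library, with bars for group means and points for the 2 libraries of each group. Clec4e, Clec4d, Clec4n, Clec4a1 and Clec5a are highest in the R848-treated WT libraries, whereas Clec4a3 is lowest there.

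The ratio of Clec4e to Clec4d, compared per length, moved with both treatment and genotype. With the union of annotated exons as length, the ratio of their RPKM values was 0.191 and 0.27 in R848-treated and 0.0714 and 0.0812 in untreated KAT8-deficient libraries. It was 0.615 and 0.62 in R848-treated and 0.125 and 0.132 in untreated WT libraries, with no overlap between groups. Annotated transcripts of Clec4e that retain introns lengthen its union, and with the longest coding transcript instead the ratio reached 1 and 1.01 in R848-treated WT libraries. The order of these ratios between groups does not depend on the length chosen.

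Clec5a and Clec4a1 followed Clec4e at lower levels. Clec5a, the DAP12-coupled receptor MDL-1, stood at 54.7 and 62.5 CPM with R848 and 34.8 and 38 CPM without in KAT8-deficient libraries, against 111 and 101 CPM with R848 and 45.7 and 41.2 CPM without in WT libraries. R848-treated libraries were above untreated ones in each genotype. Clec5a rose in KAT8-deficient cells (log2 change 0.69, SE 0.0954, edgeR adjusted p = 0.03) and in WT cells (log2 change 1.28, SE 0.0945, edgeR adjusted p = 0.000121). Under R848 it was lower in KAT8-deficient than in WT cells, by 0.85 (SE 0.0929, edgeR adjusted p = 0.00087). The KAT8-deficient response did not pass with the compared libraries alone (adjusted p = 0.09) or without KAT8-deficient R848 replicate 2 (0.107), KAT8-deficient untreated replicate 1 (0.224) or 2 (0.0965), or WT R848 replicate 1 (0.06) or 2 (0.061).

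Clec4a1 is a DCIR-group gene at the far end of the cluster from Clec4e. Its levels were 12.8 and 13.5 CPM with R848 and 8.92 and 8.67 CPM without in KAT8-deficient libraries, against 23 and 21.9 CPM with R848 and 11.1 and 9.72 CPM without in WT libraries. Clec4a1 rose in WT cells (log2 change 1.10, SE 0.106, edgeR adjusted p = 0.000313). In KAT8-deficient cells the change was 0.58 (SE 0.11, edgeR adjusted p = 0.0624), short of the threshold. Under R848 Clec4a1 was lower in KAT8-deficient than in WT cells, by 0.77 (SE 0.104, edgeR adjusted p = 0.00202). The KAT8-deficient change passed with no filter (edgeR adjusted p = 0.0258) and with robust estimation (0.0434). These were 2 of 16 alternative settings, and the DESeq2 Wald test did not call it (adjusted p = 0.087).

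Clec4n encodes Dectin-2, a receptor for fungal mannans. It was low, at 4.15 and 5.66 CPM with R848 and 4.57 and 4.6 CPM without in KAT8-deficient libraries, against 10.6 and 8.78 CPM with R848 and 6.1 and 5.49 CPM without in WT libraries. The KAT8-deficient groups overlapped and the WT groups did not. Clec4n rose in WT cells (log2 change 0.74, SE 0.174, edgeR adjusted p = 0.0242), and its change in KAT8-deficient cells was 0.097 (SE 0.188, edgeR adjusted p = 0.863). Under R848 it was lower in KAT8-deficient cells, by 0.98 (SE 0.176, edgeR adjusted p = 0.00762). The WT rise was short of the threshold when WT R848 replicate 1 (edgeR adjusted p = 0.161) or WT untreated replicate 1 (0.0709) or 2 (0.137) was left out, and so was the genotype difference without WT R848 replicate 1 (0.0646).

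Clec7a and the remaining DCIR-group genes behaved otherwise. Clec7a, the beta-glucan receptor Dectin-1, was abundant, at 403 and 421 CPM with R848 and 409.6 and 433 CPM without in KAT8-deficient libraries. WT libraries held 565 and 518 CPM with R848 and 588 and 496 CPM without. R848-treated and untreated libraries overlapped in each genotype, and all KAT8-deficient libraries were below all WT ones. The log2 changes with R848 were -0.033 (SE 0.0868) in KAT8-deficient and -0.0024 (SE 0.0866) in WT cells. The genotype difference was -0.39 under R848 (SE 0.0868, edgeR adjusted p = 0.0186) and -0.36 without it (SE 0.0868, edgeR adjusted p = 0.0566). The difference under R848 was lost when KAT8-deficient R848 replicate 1 (edgeR adjusted p = 0.107) or WT R848 replicate 1 (0.129) was left out. The untreated one passed by the DESeq2 Wald test (adjusted p = 0.00644), with no filter (edgeR adjusted p = 0.0149) and with robust estimation (0.0274). It did not pass by limma-voom (adjusted p = 0.0532), and 4 of 16 alternative settings called it.

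Clec4a3 went the other way. It stood at 24.5 and 28.8 CPM with R848 and 24 and 26.1 CPM without in KAT8-deficient libraries, against 19.5 and 19.7 CPM with R848 and 22.3 and 20.6 CPM without in WT libraries. Under R848 Clec4a3 was higher in KAT8-deficient than in WT cells (log2 difference 0.44, SE 0.105, edgeR adjusted p = 0.0251). The call was lost without KAT8-deficient R848 replicate 2 (adjusted p = 0.121), WT R848 replicate 1 (0.127) or 2 (0.107), and with the compared libraries alone (0.0507). The untreated difference was 0.22 (SE 0.105, edgeR adjusted p = 0.279).

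Clec4a2, which encodes the inhibitory receptor DCIR, ranged from 8.07 to 9.52 CPM over the KAT8-deficient libraries and from 9.6 to 11.4 CPM over the WT libraries. No comparison called it, with adjusted p from 0.277 to 0.988 (edgeR). Clec10a, the galactose-type lectin MGL1, was the rarest of the 9, with 20 to 32 counts in KAT8-deficient and 20 to 41 counts in WT libraries. Its levels were 0.99 and 1.09 CPM with R848 and 1.68 and 1.07 CPM without in KAT8-deficient libraries, against 1.07 and 1.17 CPM with R848 and 1.91 and 2.01 CPM without in WT libraries. The WT log2 change of -0.80 (SE 0.29, edgeR adjusted p = 0.11) was not called, although its unadjusted p was 0.023.

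Set against all genes tested, R848 raised 2 of the 9 lectins in KAT8-deficient cells (Clec4e and Clec5a), where 0.499% of all genes were called higher. It lowered 0 of the 9, where 0.135% were called lower, and 4 of the 9 had an unadjusted p under 0.05 in that comparison, as did 13.8% of all genes. In WT cells R848 raised 5 of the 9 (Clec4e, Clec4d, Clec4n, Clec4a1 and Clec5a), against 6.94% of all genes, and lowered 0, against 6.7%. The median log2 change of the 9 was 0.097 in KAT8-deficient cells and 0.74 in WT cells, beside 0.002 and -0.0024 over all genes tested. Under R848, 6 of the 9 were lower in KAT8-deficient than in WT cells, where 5.47% of all genes were called lower. Clec4a3 was higher, where 8.14% were called higher, and the median log2 difference was -0.42, beside -0.0075 over all genes. The count of 7 fell to 4 without WT R848 replicate 1. Without R848, edgeR called 0 of the 9 either higher or lower, against 2.91% and 1.36% of all genes. There 3 of the 9 (Clec4e, Clec7a and Clec5a) had an unadjusted p under 0.05, as did 20.3% of all genes, and DESeq2 called 2. The median log2 difference was -0.28, beside -0.0072 over all genes. The R848 responses and the genotype differences share libraries, so these counts are not independent of each other.

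**Figure D2:**
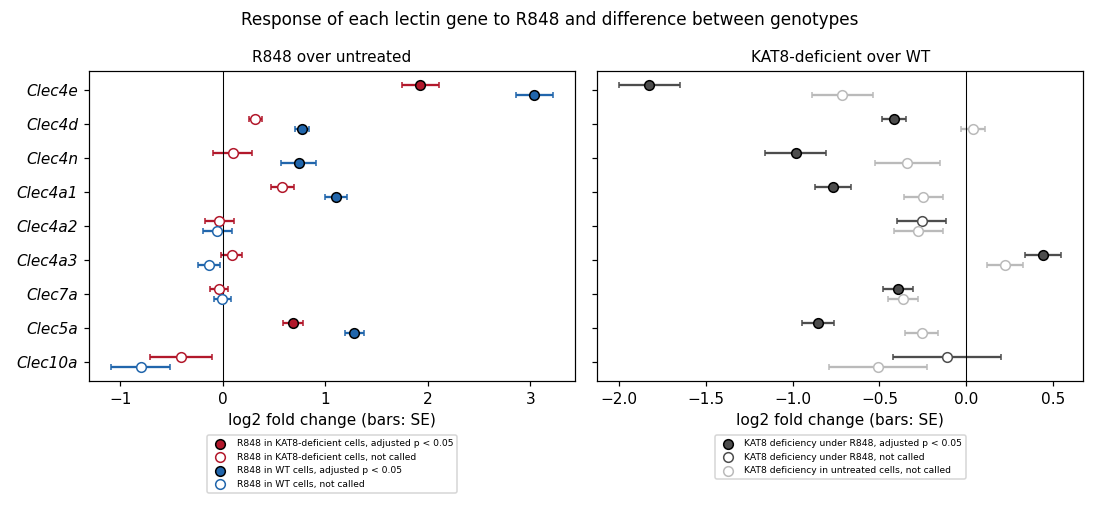
Log2 fold change (x axis, with SE) of each lectin gene for R848 over untreated in each genotype and for KAT8-deficient over WT in each state. Filled points have an edgeR adjusted p under 0.05, and the KAT8-deficient response of Clec4e, 1.93, lies left of its WT response, 3.04.

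The interaction asks whether the response to R848 differed between genotypes. Its values, the KAT8-deficient minus the WT log2 change, were -1.11 (SE 0.243) for Clec4e, -0.46 (SE 0.0956) for Clec4d, -0.60 (SE 0.133) for Clec5a, -0.52 (SE 0.152) for Clec4a1 and -0.64 (SE 0.256) for Clec4n. In edgeR 0 of the 9 passed, with adjusted p from 0.0924 for Clec4d, 0.102 for Clec4e and 0.108 for Clec5a up to 0.381 for Clec4n within this group. Over all genes 0.057% were called higher and 0.171% lower, so few genes of any kind passed. These 5 had an unadjusted p under 0.05, as did 11.4% of all genes. DESeq2's Wald test called 3 of them, Clec4d (adjusted p = 0.00933), Clec5a (0.0238) and Clec4e (0.0306). With no filter edgeR called the same genes (adjusted p = 0.0404, 0.0411 and 0.0071), and with robust estimation it called Clec4d (0.0474). The Clec4e value did not pass with robust estimation (edgeR adjusted p = 0.271) or by limma-voom (adjusted p = 0.103). Over 15 alternative settings it ran from -1.46, without KAT8-deficient R848 replicate 2, to -0.83, and was called in 3 of them. KAT8-deficient R848 replicate 2 held more than replicate 1 of each of the 5 genes, for Clec4e 326 against 210.2 CPM. The other 4 genes had interaction values from -0.031 for Clec7a to 0.40 for Clec10a (SE 0.422), none with an unadjusted p under 0.05.

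Per length, the order of the 9 genes differed between groups at the places of Clec4e, Clec4a3, Clec5a, Clec4d and Clec7a. With union exon lengths, Clec4d led in R848-treated KAT8-deficient cells (232 ± 15.9 RPKM; SD, n = 2), ahead of Clec7a (156 ± 4.89) and Clec4e (54 ± 16.6). In untreated KAT8-deficient cells Clec4d (186 ± 1.34) and Clec7a (159.8 ± 6.38) were followed by Clec4a3 (18.9 ± 1.13) and Clec4e (14.2 ± 1.39), whose RPKM differed from each other by more than their SDs. With coding transcript lengths that order turned, with Clec4e at 28 and Clec4a3 at 19.3 RPKM. In R848-treated WT cells Clec4d (310.1 ± 16.8 RPKM) was followed by Clec7a (205 ± 12.5) and Clec4e (192 ± 9.28), and the RPKM ranges of Clec7a (196 to 214) and Clec4e (185 to 198) overlapped. There Clec5a (27.6 ± 1.8 RPKM) stood above Clec4a3 (14.8 ± 0.0711), whereas it stood below it in the other groups. With coding transcript lengths, a choice made after the data were seen, Clec4e instead averaged 378 RPKM there, beside 375 for Clec4d and 238 for Clec7a. In untreated WT cells Clec7a (206 ± 24.5) came before Clec4d (181 ± 3.95), and Clec4e (23.3 ± 0.397) and Clec4a3 (16.2 ± 0.926) came next. There the RPKM ranges of Clec7a (188 to 223) and Clec4d (178 to 184) did not overlap, although the SD of Clec7a was wide. Clec4a1, Clec4n, Clec4a2 and Clec10a held the lowest places in this order in all 4 groups, Clec10a at 0.358 to 0.676 RPKM. Clec4e made up 9.13% and 12.6% of the summed RPKM of the 9 genes in R848-treated and 3.36% and 3.72% in untreated KAT8-deficient libraries. The shares were 24.6% and 24.9% in R848-treated and 4.85% and 5.48% in untreated WT libraries.

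Over the 8 libraries, the log2 CPM of Clec5a, Clec4a1 and Clec4d had Pearson correlations with that of Clec4e of 0.994, 0.987 and 0.972, and Clec4n one of 0.837. The correlations were 0.407 for Clec7a, 0.224 for Clec4a2, -0.464 for Clec4a3 and -0.52 for Clec10a. These describe the same 8 libraries and their groups and are not tests. Among 10535 genes with a symbol and a mean of at least 5 CPM, the 5 with the highest correlation were Psmd10, a chaperone of the proteasome (0.9995), Tlr2, a receptor for bacterial lipoproteins (0.9991), Rassf4 (0.9969), Fpr1, the formyl peptide receptor (0.9966), and Acod1, which makes itaconate (0.9957). Tlr2 stood at 127 and 181 CPM with R848 and 54.7 and 63.7 CPM without in KAT8-deficient libraries, against 423 and 407 CPM with R848 and 82.2 and 78.9 CPM without in WT libraries. As with Clec4e, the KAT8-deficient R848 libraries lay between the untreated and the R848-treated WT libraries, with replicate 2 above replicate 1. Psmd10 had the same order over a narrower range, from 36.9 CPM in an untreated KAT8-deficient library to 81.1 CPM in an R848-treated WT library.

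Genes tied to the signalling of these lectins were counted as a list of 29, all of which were tested. The list also holds Cebpb and the phosphatase genes Ptpn6 and Ptpn11 of the inhibitory route. In edgeR R848 raised 1 of them and lowered 0 in KAT8-deficient cells, beside 0.499% and 0.135% of all genes. There 11 of the 29 had an unadjusted p under 0.05, as did 13.8% of all genes, and DESeq2 called 5. In WT cells R848 raised 10 and lowered 3 of the 29, beside 6.94% and 6.7% of all genes. The median log2 change was 0.031 in KAT8-deficient and 0.21 in WT cells, beside 0.002 and -0.0024 over all genes. The gene raised in KAT8-deficient cells was Fgr, a Src-family kinase (log2 change 0.43, SE 0.0608, edgeR adjusted p = 0.03). Genes raised in WT cells included Malt1, Fgr and Src. Malt1, the protease of the Card9, Bcl10 and Malt1 complex, stood at 128.5 and 175 CPM with R848 and 88.3 and 97.2 CPM without in KAT8-deficient libraries, against 458 and 449 CPM with R848 and 133 and 128 CPM without in WT libraries. It rose in WT cells by 1.80 (SE 0.128, edgeR adjusted p = 0.000108), and its KAT8-deficient change was 0.71 (SE 0.126, edgeR adjusted p = 0.0543). Fgr rose in WT cells by 0.77 and Src by 0.92 on the log2 scale. The 3 that fell in WT cells were Cblb, a ubiquitin ligase, Inpp5d, a lipid phosphatase, and Nfatc1, by 0.42, 0.48 and 0.44. The adaptor genes Fcer1g and Tyrobp and the scaffold gene Card9 did not pass in any comparison, with edgeR adjusted p from 0.157 to 0.995. Fcer1g held 465 and 379 CPM with R848 and 475 and 368 CPM without in KAT8-deficient libraries, against 507 and 498 CPM with R848 and 437 and 411 CPM without in WT libraries.

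Under R848, 10 of the 29 signalling genes were lower and 3 higher in KAT8-deficient than in WT cells, beside 5.47% lower and 8.14% higher of all genes. The median log2 difference was -0.23, beside -0.0075 over all genes. Malt1 differed by -1.58 (SE 0.126, edgeR adjusted p = 0.000348), Src by -0.64 (SE 0.0881) and Syk by -0.62 (SE 0.0951, edgeR adjusted p = 0.00375). Cebpb, which encodes a C/EBP factor, differed by -0.41 (SE 0.103, edgeR adjusted p = 0.0321). The 3 higher genes were Cblb (0.48), Inpp5d (0.33) and Plcg1 (0.26). Without R848, edgeR called 1 of the 29, and over all genes 2.91% were called higher and 1.36% lower. There DESeq2 called 2, and 5 of the 29 had an unadjusted p under 0.05, as did 20.3% of all genes. The gene called by edgeR was Src, which was higher in KAT8-deficient cells (log2 difference 0.74, SE 0.0893, edgeR adjusted p = 0.00523). In edgeR 1 gene of the list, again Src, had a called interaction, beside 0.057% higher and 0.171% lower of all genes. For the interaction DESeq2 called 4, and 9 of the 29 had an unadjusted p under 0.05, as did 11.4% of all genes. The interaction of Src was -1.38 (SE 0.125, edgeR adjusted p = 0.00544). It stood at 47 and 50.6 CPM with R848 and 66.2 and 68.4 CPM without in KAT8-deficient libraries, against 72.2 and 80.4 CPM with R848 and 37.7 and 43 CPM without in WT libraries. The untreated libraries were thus the higher ones in KAT8-deficient cells and the lower ones in WT cells. The KAT8-deficient change of Src, -0.46 (SE 0.0883, edgeR adjusted p = 0.0648), was short of the threshold.

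**Figure D3:**
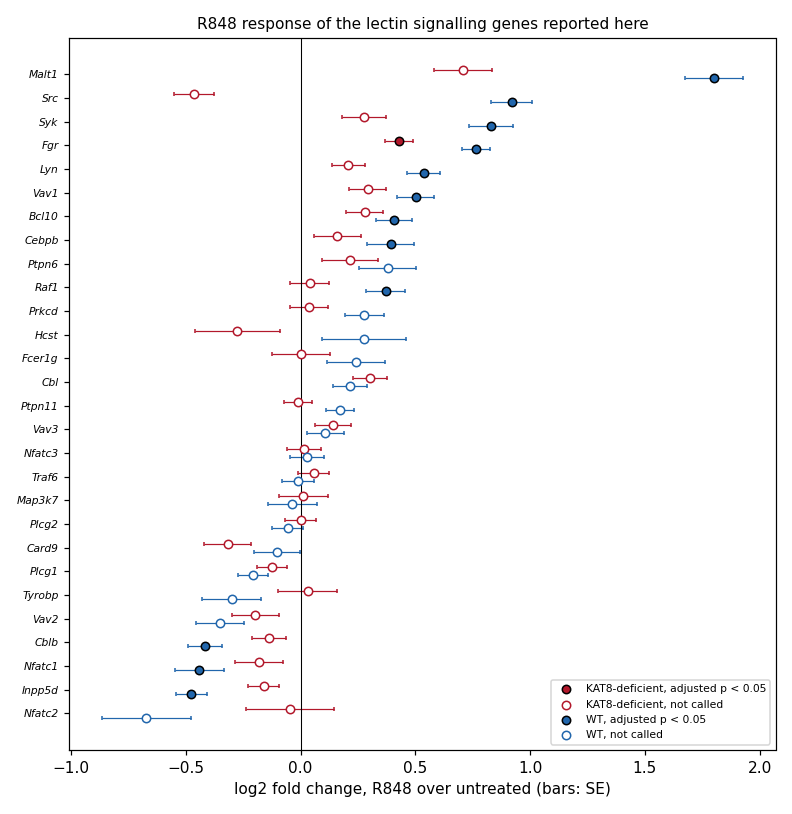
Log2 fold change for R848 over untreated (x axis, with SE) of the lectin signalling genes reported here (y axis, in the order of the WT change) in KAT8-deficient and WT cells, with filled points for an edgeR adjusted p under 0.05. Malt1 has the highest WT value, 1.80, and Src has values on opposite sides of 0, -0.46 in KAT8-deficient and 0.92 in WT cells.

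Of 48 other C-type lectin and lectin-domain genes, 23 were tested and 12 had no count in any library. In edgeR R848 raised 0 and lowered 0 of the 23 in KAT8-deficient cells, beside 0.499% and 0.135% of all genes. There 6 of the 23 had an unadjusted p under 0.05, as did 13.8% of all genes, and DESeq2 called 3. It raised 7 and lowered 3 in WT cells, beside 6.94% and 6.7% of all genes. Olr1, the scavenger receptor LOX-1, rose in WT cells by 2.31 on the log2 scale (SE 0.186, edgeR adjusted p = 0.000158), Cd302 by 0.82 (SE 0.0723) and Ly75, encoding DEC-205, by 0.75 (SE 0.106). Cd93, Thbd and Mrc2 fell there by 0.60, 0.33 and 0.37. In KAT8-deficient cells the log2 value of Olr1 was 1.06 (SE 0.188, edgeR adjusted p = 0.0538), short of the threshold. Under R848, 7 of the 23 were lower and 4 higher in KAT8-deficient than in WT cells, beside 5.47% and 8.14% of all genes. The lower ones included Cd69, by 1.96 on the log2 scale, Olr1 by 1.29, Ly75 by 0.80 and Cd302 by 0.53. The 4 that were higher were Colec12 (0.50), Mrc2 (0.48), Thbd (0.39) and Cd93 (0.38). Without R848, 3 were lower (Clec16a, Ly75 and Clec2i) and 2 higher, beside 1.36% and 2.91% of all genes. The higher ones were Colec12 (0.43) and Clec14a, a lectin-domain gene of endothelium, which stood at 1.57 and 1.6 CPM in KAT8-deficient and 0.186 and 0.163 CPM in WT libraries. The mannose receptor gene Mrc1 stood at 255 to 286 CPM in KAT8-deficient and 257 to 290.3 CPM in WT libraries and did not pass in any comparison. In edgeR 0 of the 23 had a called interaction, beside 0.057% higher and 0.171% lower of all genes. For it 10 of the 23 had an unadjusted p under 0.05, as did 11.4% of all genes, and DESeq2 called 2.

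Genes beside and inside the lectin cluster were followed by their position. Of 26 other annotated genes inside the cluster or within 500 kb of it on chromosome 6, 9 were tested, all on the Clec4a1 side. The genes beyond Clec4e, all Vmn2r genes or pseudogenes, had no count in any library, so that side was not followed. The 26 include Clec4a4, Clec4b1 and Clec4b2, which lie inside the cluster, were not tested and also belong to the 48 other lectin genes. In edgeR R848 raised 0 and lowered 0 of the 9 tested genes in KAT8-deficient cells, beside 0.499% and 0.135% of all genes. There 1 of the 9 had an unadjusted p under 0.05, as did 13.8% of all genes, and DESeq2 called 1. It raised 0 and lowered 2 in WT cells, beside 6.94% and 6.7% of all genes. The lowered genes were C3ar1, encoding the complement C3a receptor (log2 change -0.84, SE 0.0702, edgeR adjusted p = 0.000187), and Apobec1, an RNA-editing cytidine deaminase (-0.71, SE 0.155, edgeR adjusted p = 0.0184). C3ar1, on the Clec4a1 side of the cluster, stood at 549 and 507 CPM with R848 and 659 and 636 CPM without in KAT8-deficient libraries, against 333 and 316 CPM with R848 and 607.5 and 552 CPM without in WT libraries. Under R848, 1 of the 9 was higher and 1 lower in KAT8-deficient than in WT cells, beside 8.14% and 5.47% of all genes. The higher gene was C3ar1 (0.70, SE 0.07, edgeR adjusted p = 0.000642) and the lower one Gdf3 (-0.90, SE 0.101, edgeR adjusted p = 0.000991). Without R848, 0 were higher and 1 lower, beside 2.91% and 1.36% of all genes. The lower gene was again Gdf3, encoding a growth factor of the TGF-beta family (-1.16, SE 0.102, edgeR adjusted p = 0.0016). Within the cluster itself, Clec4a3 and Clec4a2, which lie between Clec4a1 and Clec4n, were not called for R848 in either genotype, and Clec4b2 had no count in any library. The interaction called 0 of the 9 neighbours in edgeR, beside 0.057% higher and 0.171% lower of all genes. For it 3 of the 9 had an unadjusted p under 0.05, as did 11.4% of all genes, and DESeq2 called 2.

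**Figure D4:**
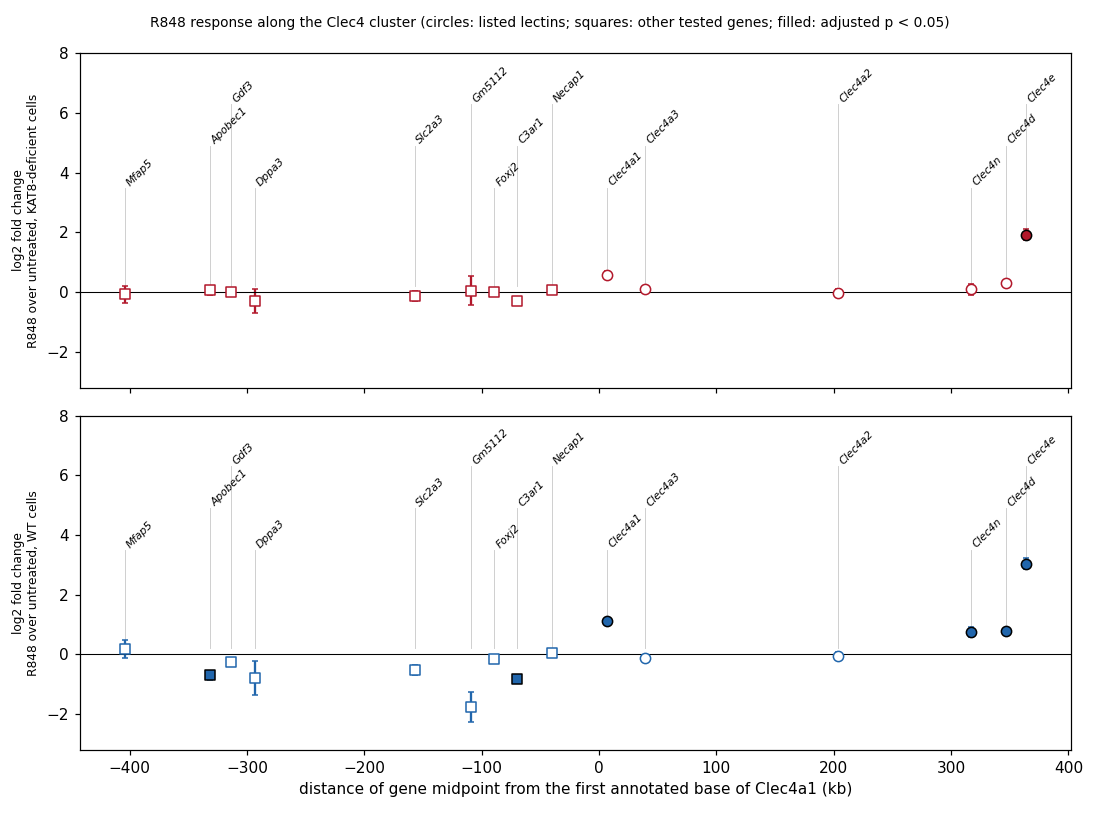
Log2 fold change for R848 over untreated (y axis, with SE) of the 6 cluster lectins (circles) and the 9 other tested genes within 500 kb (squares) against distance in kb from Clec4a1, in KAT8-deficient cells (upper panel) and WT cells (lower panel). In WT cells the filled circles, with an edgeR adjusted p under 0.05, are Clec4a1, Clec4n, Clec4d and Clec4e, and the filled squares, Apobec1 and C3ar1, lie below 0.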

How the data were processed

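Messenger RNA was sequenced in 8 libraries of mouse BMDM. The authors deposited raw counts of reads per Ensembl gene in a single table, whose header names the libraries. StringTie 1.3.0, HISAT2, edgeR and mm10 are named in the submitters' processing notes, without roles, and the sources used here give no annotation or strand setting. Each column was matched to a sample by its title. Symbols, positions and exon lengths came from GENCODE M21 (GRCm38, the same build as mm10), with 34267 of 34745 identifiers matched, and promoters from RefSeq on GRCm38.p6, which held 7 of the 9 lectins (not Clec4n or Clec10a).

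Genes with low counts were removed with filterByExpr. TMM normalisation and a quasi-likelihood fit of all 8 libraries together (edgeR 4.0.16, R 4.3.3) estimated 1 mean per group with 4 residual degrees of freedom, at a common BCV (biological coefficient of variation) of 0.0956. P-values were two-sided and adjusted over 14040 genes by Benjamini-Hochberg, with a threshold of 0.05. The SE was taken as the size of the log2 change over the root of F. Log2 CPM for correlations used a prior count of 2. Replicates were further apart than counting error allows (chi-square per degree of freedom 7.65 to 12.3). RPKM is CPM per kb of the union of exons. The alternatives are given at the end, among them DESeq2 1.42.0 and limma-voom (limma 3.58.1).

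The members and lists were chosen with earlier results of these data known. In each list up to 4 called genes with the smallest adjusted p were named, and others, such as Syk, Cebpb, Fcer1g, Tyrobp, Card9, Mrc1 and those named where a count was 5 or fewer, were named after their values were seen. A gene of the signalling list is counted there but not reported here.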

Additional observations from a re-analysis of the deposited data

How the results depend on the processing

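Of the 9 lectins, the number called for R848 in KAT8-deficient cells, 2 by edgeR, was 4 with no filter on low counts, 4 with robust estimation and 1 with the compared libraries alone, and 0 to 2 when a library was left out. For R848 in WT cells it was 5 under all 8 alternatives that kept every library, and 4 to 5 when a library was left out. For untreated KAT8-deficient over WT cells, 0 became 2 with no filter, 2 by DESeq2, 1 with robust estimation and 1 with the compared libraries alone, and 0 to 1 when a library was left out. Under R848 it stayed at 6 or 7 with every library, and was 4 to 7 when a library was left out. For the interaction, 0 became 3 with no filter, 3 by DESeq2 and 1 with robust estimation, and 0 to 1 when a library was left out. DESeq2 size factors, a minimum of 5 CPM, limma-voom and the replicate block changed none of these 5 counts by over 1.5 times. The DESeq2 Wald test called 3 lectins for R848 in KAT8-deficient cells, 5 for R848 in WT cells and 7 between the genotypes under R848. With the replicate block, R848 called 2 lectins in KAT8-deficient and 5 in WT cells. Libraries of the same replicate number deviated together with correlations of -0.06 to 0.048, so the numbers were not taken as pairs. Values near 0 changed sign. For R848 in WT cells Clec7a was 0.00030 by limma-voom and -0.13 to 0.11 with a library left out, and Clec4a2 -0.16 to 0.044. For R848 in KAT8-deficient cells Clec4n ran from -0.14 to 0.30, Clec4a2 from -0.14 to 0.074, Clec4a3 from -0.031 to 0.20 and Clec7a from -0.077 to 0.0084. Interactions of Clec4a2 ran from -0.087 to 0.13 and of Clec7a from -0.15 to 0.096. The cause was not tested. No called value changed sign. Clec10a rests on 20 to 41 counts per library.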
